A study of Mus musculus with 16 samples.

Results

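The 9 genes described here, *Tatdn3*, *Nceh1*, *Icosl*, *Ccdc88c*, *Abat*, *Cntnap2*, *Hs3st5*, *Tmx4* and *Adamtsl2*, were chosen from the 55492 in the table by their normalized counts, which differed between PKM2-/- and PKM2fl/fl mouse hearts, over 16 libraries or after sham surgery. Genes on chromosome 9, the chromosome of *Pkm*, were left out of the choice, so that none of the 9 lies there. Since these values chose the genes, their genotype differences are given as a description, with no test, and no threshold is stated for the choice. Their changes with infarction and with surgery, averaged over both genotypes, were tested. Both of these contrasts include the sham hearts used in the choice, so they are not independent of it.

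The RNA came from the left ventricles of male C57BL/6 mice aged 8 to 12 weeks, with 1 library per heart. PKM2fl/fl mice, the controls, carry *Pkm* with its exon 10 flanked by loxP sites. PKM2-/- mice carry the germline deletion of that exon, made with Cre under a CMV promoter, in all tissues, and the Cre allele was bred out. There were 2 hearts per genotype without surgery (baseline), 3 per genotype after sham surgery, in which the left anterior descending artery was not tied, and 3 per genotype after myocardial infarction (MI) by permanent ligation of that artery, both taken at day 3.

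*Pkm* encodes pyruvate kinase M1 and M2, which are made by choosing between a pair of exons. PKM2 carries out the last step of glycolysis, and in the nucleus it has been described as a partner of HIF-1α and β-catenin in transcription. The 9 genes belong to no single pathway. *Abat*, *Nceh1* and *Hs3st5* encode enzymes: mitochondrial GABA transaminase, which breaks down the transmitter GABA; a hydrolase of the endoplasmic reticulum that frees cholesterol from its esters; and a sulfotransferase that adds 3-O-sulfate to heparan sulfate chains. *Tatdn3* encodes a member of the TatD family of metal-dependent nucleases. *Icosl* (the ligand of the T cell receptor ICOS), *Ccdc88c* (Daple, which binds Dishevelled and activates inhibitory G proteins in WNT signalling) and *Cntnap2* (Caspr2, which holds potassium channels in place on axons) encode proteins of signalling and cell contact. *Tmx4* encodes a thioredoxin-related membrane protein of the endoplasmic reticulum, and *Adamtsl2* a secreted glycoprotein that binds fibrillin and latent TGF-β binding protein in the matrix.

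Libraries held 20623769 to 71855101 reads on genes, and all 9 genes were among the 20576 that passed the filter on low values (a mean of at least 10 normalized counts). *Pkm*, counted as a whole gene, had 7779 to 12076 normalized counts (reads divided by the library's size factor) in PKM2fl/fl and 10120.2 to 16113 in PKM2-/- hearts. Such counts hold both isoforms, so they do not check the deletion of exon 10. Summed cardiomyocyte markers (5 genes, none at 0) were 550000 to 706000 normalized counts without infarction and 99400 to 255000 with it. Some libraries stood apart. An rRNA locus took 0.11% to 25.1% of reads, with 0.11% to 1.39% in PKM2fl/fl and 4.14% to 15.01% in PKM2-/- hearts at baseline and after sham surgery, and with the highest shares, 23.0% and 25.1%, in the third and the first PKM2fl/fl MI library. The third PKM2fl/fl MI library also had the lowest cardiomyocyte sum, 99400 against 250000 and 255000 in the other two. Neutrophil markers summed to 1230 to 2140 in PKM2fl/fl and 3530 to 4520 in PKM2-/- hearts after MI. Macrophage markers (11000 to 14500 against 14600 to 17200) were also apart after MI. So were smooth muscle and pericyte markers (9910 to 12700 against 8500 to 9420), lower in PKM2-/- hearts. In these lists 0 markers had an adjusted p under 0.05 for genotype over all hearts (limma). The part of these differences in the results that follow was not tested, except where a value without these libraries or with the rRNA locus as a covariate is given. In whole tissue, fewer cells of a type and less RNA per cell cannot be told apart.

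The 9 genes lie on 7 chromosomes of mm10 (GRCm38.p6), with *Icosl* and *Hs3st5* both on chromosome 10, and *Tmx4* and *Adamtsl2* both on chromosome 2. *Cntnap2*, at chr6:45060061-47301393, was the longest at 2241.3 kb, and *Icosl*, at chr10:78069368-78079525, the shortest at 10.2 kb. *Ccdc88c* lies at chr12:100911519-101029351, *Nceh1* at chr3:27183004-27245266, *Abat* at chr16:8513429-8621568, *Tatdn3* at chr1:191045826-191063075, *Hs3st5* at chr10:36506590-36834397, *Tmx4* at chr2:134594501-134644121 and *Adamtsl2* at chr2:27079336-27108981.

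Because PKM2 has been linked to HIF-1α and β-catenin, the 250 bases before the start of each gene were searched on both strands for the core of the HIF response element (ACGTG or GCGTG) and for the TCF core (CTTTGA). RefSeq windows were found for 7 of the 9 genes. Some windows lay outside the bases of their own gene, and overlap with other genes was not checked. Of these, the *Icosl* window held no HIF core and is not printed. The windows below, which held cores, belong to *Nceh1* and *Cntnap2*, with a lower mean in PKM2-/- hearts at each time, and to *Tmx4*, with a higher one. They are printed 5′ to 3′ on the strand of the gene, with the bases of HIF cores in capitals: chr3:27182754-27183003 (plus strand), chr6:45059811-45060060 (plus strand) and chr2:134644122-134644371 (minus strand) of GRCm38.p6.
Nceh1: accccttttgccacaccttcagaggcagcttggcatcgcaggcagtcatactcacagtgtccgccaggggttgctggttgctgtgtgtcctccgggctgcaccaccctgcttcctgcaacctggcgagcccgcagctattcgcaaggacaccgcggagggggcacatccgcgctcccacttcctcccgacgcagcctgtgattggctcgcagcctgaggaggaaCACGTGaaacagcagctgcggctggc
Cntnap2: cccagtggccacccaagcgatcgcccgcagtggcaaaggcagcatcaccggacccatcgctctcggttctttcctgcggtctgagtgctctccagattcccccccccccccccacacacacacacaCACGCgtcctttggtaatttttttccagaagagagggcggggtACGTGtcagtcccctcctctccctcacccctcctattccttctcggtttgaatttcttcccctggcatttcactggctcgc
Tmx4: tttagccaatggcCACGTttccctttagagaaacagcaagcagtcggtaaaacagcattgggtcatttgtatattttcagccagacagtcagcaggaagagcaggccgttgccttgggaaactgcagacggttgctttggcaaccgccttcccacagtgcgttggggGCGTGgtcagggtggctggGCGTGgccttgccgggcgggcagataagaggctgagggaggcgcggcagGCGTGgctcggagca
*Nceh1* had 2 matches, which are the same palindrome (CACGTG) read on both strands, *Cntnap2* had 2 and *Tmx4* had 4. A HIF core was present in 38.6% of the 32851 windows of this length in the table, so its presence does not set these genes apart. Each of the 2 *Tatdn3* windows, which overlap, had 1 match. The *Icosl*, *Hs3st5* and *Adamtsl2* windows and a further *Cntnap2* window held no match, so that 4 of the 7 genes had a core in a window. No window of the 9 genes that was found held the TCF core, which 13.8% of all windows did. A match is not a binding site, and the absence of one concerns these 250 bases alone.

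At each of the 3 times, 4 genes separated every PKM2-/- heart from every PKM2fl/fl heart of the same treatment: *Tatdn3*, *Nceh1* and *Ccdc88c* were lower and *Icosl* was higher. The share of all genes that did so at all 3 times was not counted. These values also served in choosing the genes, so nothing is read from the count of 4. After sham surgery all 9 genes separated the genotypes. Of all genes tested, 16.5% did so, and since the sham hearts served in choosing the 9 genes nothing is read from this count. The same held for 6 of the 9 at baseline (34.9% of all genes) and for 5 of 9 after MI (18.9%). The sign of the genotype difference was the same at all 3 times in 6 of the 9 genes, as in 28.6% of all genes. No gene of the 9 separated all 8 PKM2-/- from all 8 PKM2fl/fl libraries, as 0.00972% of all genes did.

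**Figure D1:**
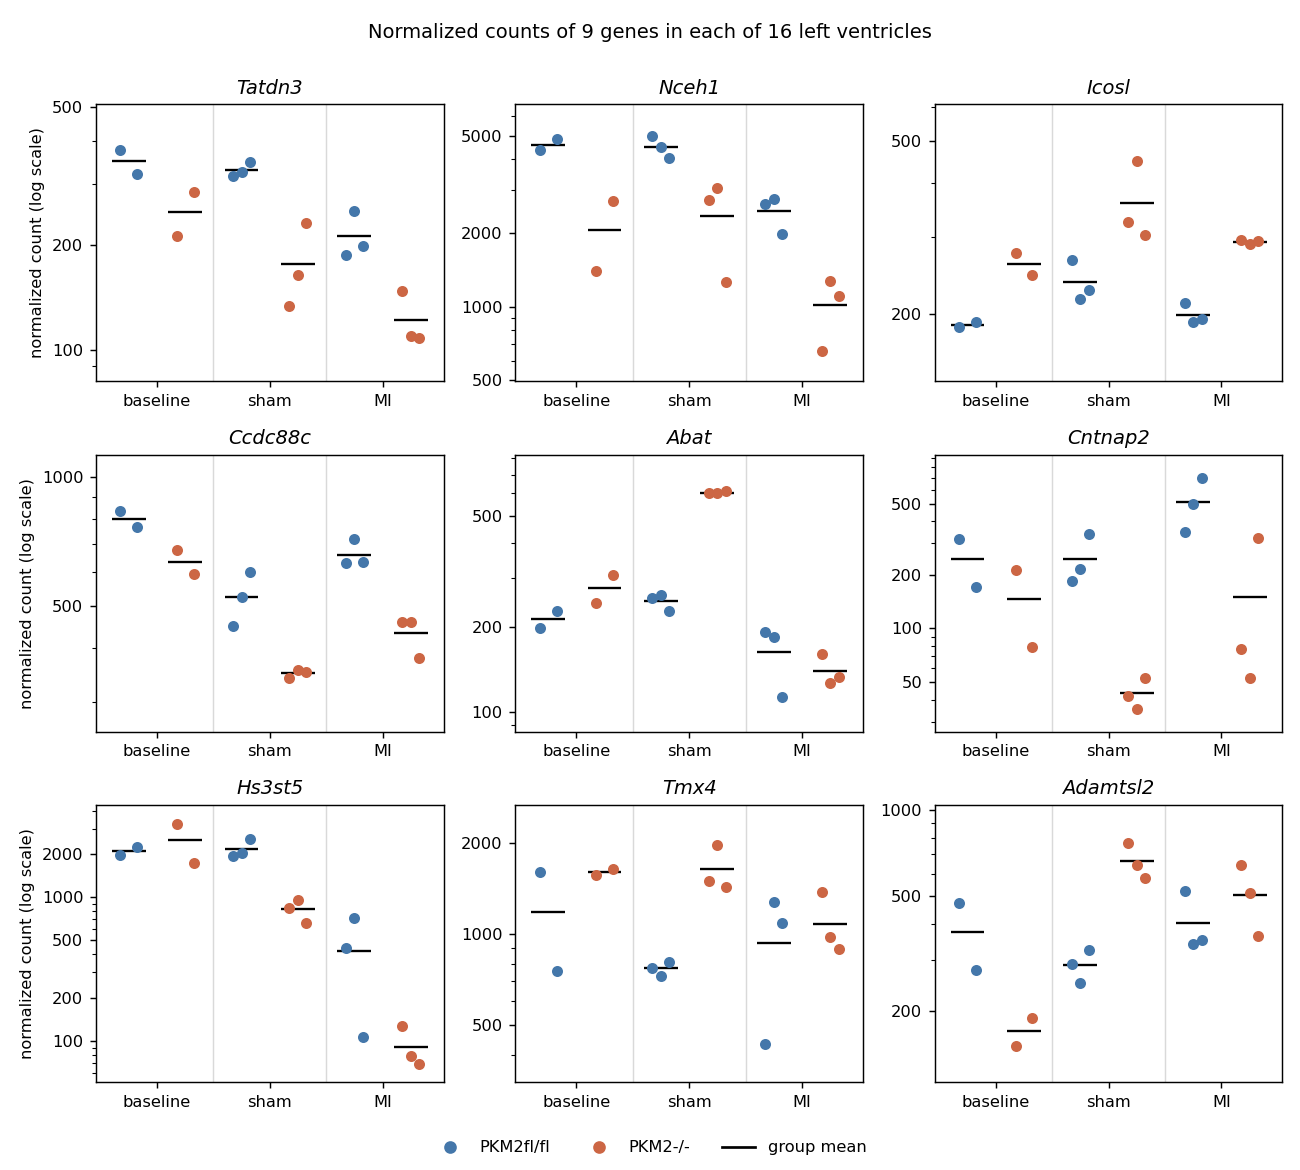
Normalized counts (log axis) of each of the 9 genes in the 16 left ventricles, with a point per heart, a bar at the group mean, and PKM2fl/fl and PKM2-/- hearts side by side at baseline, after sham surgery and after MI. All 9 genes keep the genotypes apart after sham surgery, *Abat* most tightly (599.7 to 609.5 in PKM2-/- hearts), while *Tmx4* and *Hs3st5* overlap at baseline and after MI.

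*Nceh1*, the cholesteryl ester hydrolase, was the most abundant of the 9 genes in normalized counts, which are not corrected for gene length. At baseline it had 4363 and 4843 normalized counts in PKM2fl/fl and 1402 and 2697.5 in PKM2-/- hearts. After sham surgery the values were 4976, 4488 and 4069 in PKM2fl/fl and 2729.8, 3052 and 1258 in PKM2-/- hearts. After MI they were 2637, 2755 and 1972 against 659, 1271 and 1107. Every PKM2-/- heart lay below every PKM2fl/fl heart of its treatment, and the highest PKM2-/- value, in a sham heart, lay above all 3 infarcted PKM2fl/fl hearts. The log2 difference between genotypes was -1.20 ± 0.19 (SE) over the 16 libraries, 2.29-fold lower in PKM2-/- hearts, and it was -1.24 at baseline, -1.04 after sham surgery and -1.32 after MI.

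*Tatdn3*, the nuclease gene, had 377 and 321 normalized counts in PKM2fl/fl and 213 and 284 in PKM2-/- hearts at baseline. After sham surgery it had 317, 325 and 347 against 133, 165 and 232, and after MI 187, 251 and 198 against 148, 109 and 108. The genotypes did not overlap at any time. The log2 difference over the 16 libraries was -0.74 ± 0.12 (SE), or 1.67-fold lower in PKM2-/- hearts. *Tatdn3* shares bases with the start of its neighbour *Nsl1*, and the counting is not stated to have used strand, so reads in the shared stretch cannot be assigned.

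*Ccdc88c* had 835 and 767 normalized counts in PKM2fl/fl and 676 and 596 in PKM2-/- hearts at baseline. Its sham values were 451, 527 and 602 in PKM2fl/fl and 341, 355 and 352 in PKM2-/- hearts. After MI the values were 631, 718 and 633 against 459.6, 459.8 and 379. PKM2-/- hearts were lower throughout, and the baseline hearts of each genotype were higher than every operated heart of that genotype. The log2 difference was -0.51 ± 0.07 (SE), the smallest in size of the 4 genes that separated the genotypes at every time, and its spread within groups was also the smallest of the 9 (0.136 SD on the log2 scale, against a median of 0.248 over all genes). By limma's t statistic for genotype over 16 libraries it ranked 1 among 19597 tested genes not placed on chromosome 9, ahead of *Nceh1* at 4, *Icosl* at 5 and *Tatdn3* at 6. *Cntnap2* ranked 23, *Abat* 88, *Hs3st5* 366, *Tmx4* 564 and *Adamtsl2* 9402. These ranks come from the values that chose the genes, so they are a description and nothing is read from them. Of the 19597 genes 16325 have a RefSeq position, and the chromosome of the rest was not known here.

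*Icosl*, the costimulatory ligand, was the only one of these 4 that was higher without PKM2. It had 186 and 191 normalized counts in PKM2fl/fl and 276 and 246 in PKM2-/- hearts at baseline. After sham surgery it had 266, 217 and 226 against 325, 451 and 304, and after MI 212, 191 and 194 against 296, 289.6 and 294. The 3 infarcted PKM2-/- hearts differed little among themselves (293 ± 3.27, SD, n = 3). The log2 difference was 0.54 ± 0.09 (SE) over the 16 libraries, 1.45-fold, and it ranged from 0.46 at baseline to 0.59 after sham surgery.

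*Cntnap2* showed the largest log2 difference between genotypes of the 9 genes, -1.82 ± 0.33 (SE) or 3.52-fold lower in PKM2-/- hearts, and the largest spread within groups (0.788 SD on the log2 scale, larger than in 94.7% of all genes). At baseline the values overlapped, with 318 and 171 normalized counts in PKM2fl/fl and 213 and 78.8 in PKM2-/- hearts. After sham surgery they were 184, 216 and 337 against 41.8, 35.3 and 52.9. After MI they were 348, 495 and 696 against 77.0, 52.7 and 322, so that a single infarcted PKM2-/- heart came near the control range. The lowest of these values, 35.3, rested on 27 reads, and the fewest reads were 26, at 41.8.

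*Hs3st5*, the heparan sulfate 3-O-sulfotransferase, separated the genotypes after sham surgery and overlapped at baseline. It had 1949 and 2248 normalized counts in PKM2fl/fl and 3232 and 1728 in PKM2-/- baseline hearts, and there the PKM2fl/fl values lay between the PKM2-/- ones. After sham surgery it had 1923, 2016 and 2543 against 846, 961 and 660.2. After MI it had 441, 716 and 107 against 126, 78.8 and 69.2. The lowest infarcted PKM2fl/fl heart, the third library, fell inside the PKM2-/- range. The log2 difference between genotypes was 0.17 at baseline, -1.40 after sham surgery and -1.86 after MI. Over the 16 libraries it was -1.03 ± 0.30 (SE). It was -1.29 without the third PKM2fl/fl MI library and -0.46 with the rRNA locus as a covariate.

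*Abat*, the GABA transaminase, had its genotype difference mainly in the sham hearts. It had 254, 259.7 and 229 normalized counts in PKM2fl/fl and 599.7, 601 and 609.5 in PKM2-/- sham hearts, a log2 difference of 1.28 ± 0.18 (SE) or 2.44-fold. At baseline it had 199 and 229 against 244 and 308, and after MI 192, 184 and 113 against 161, 126 and 133. The genotypes were thus apart at baseline by a narrow margin and overlapped after MI. By the sham contrast alone *Abat* ranked 2 among the 19597 tested genes not placed on chromosome 9. The others of the 9 ranked from 24 (*Adamtsl2*) to 685 (*Hs3st5*). The sham hearts served in choosing the genes, so nothing is read from these ranks.

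*Adamtsl2*, the matrix glycoprotein, had genotype differences of opposite direction before and after sham surgery. At baseline it had 475 and 277 normalized counts in PKM2fl/fl and 152 and 189 in PKM2-/- hearts. After sham surgery it had 291, 251 and 326 against 768, 643 and 578, and after MI 522, 341 and 353 against 643, 514 and 364. PKM2-/- hearts lay below all controls at baseline and above all controls after sham surgery, and the genotypes overlapped after MI. The log2 differences were -1.10 ± 0.29 (SE) at baseline, 1.19 ± 0.23 after sham surgery and 0.31 ± 0.23 after MI, and they came to 0.13 ± 0.15 over the 16 libraries.

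*Tmx4* had 776, 729.8 and 809.8 normalized counts in PKM2fl/fl and 1503, 1982 and 1435 in PKM2-/- sham hearts, a log2 difference of 1.07 ± 0.33 (SE) or 2.10-fold. At baseline it had 1609.9 and 757 against 1571 and 1647, and after MI 433, 1281 and 1088 against 1377, 979 and 894. The genotypes overlapped at baseline and after MI. The PKM2fl/fl hearts spread widely at both of these times, while the 3 PKM2fl/fl sham hearts lay close together. With the rRNA locus as a covariate the log2 difference over the 16 libraries was 1.07 in place of 0.65.

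**Figure D2:**
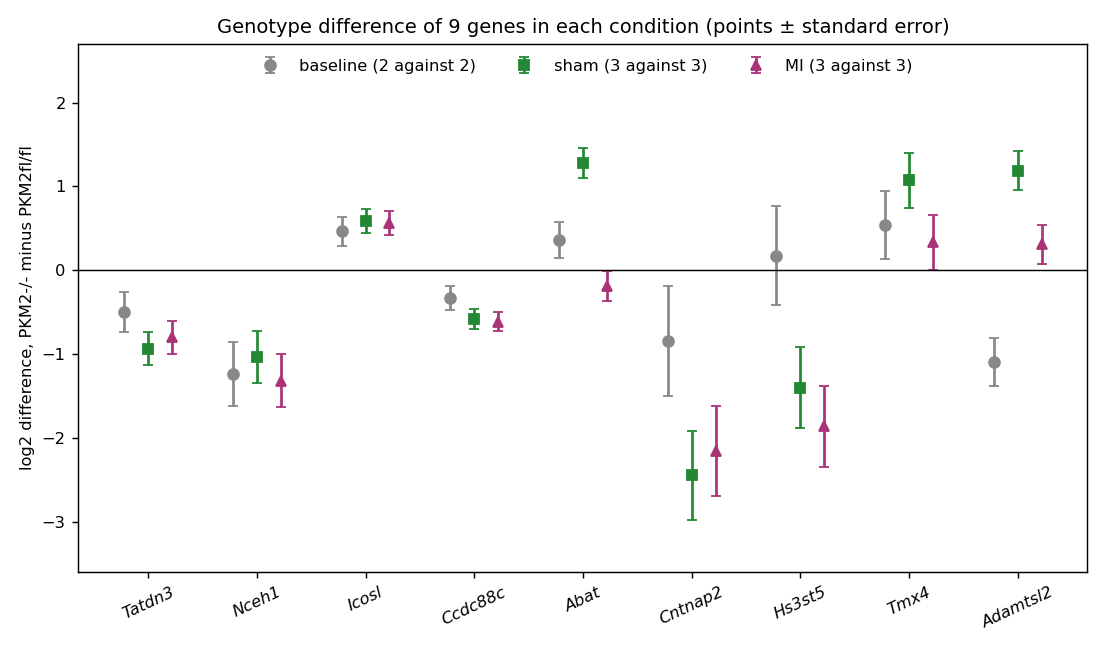
Log2 difference between PKM2-/- and PKM2fl/fl hearts for each of the 9 genes at baseline (circles), after sham surgery (squares) and after MI (triangles), with error bars of 1 standard error from the fit to all libraries. *Tatdn3*, *Nceh1* and *Ccdc88c* lie below 0 and *Icosl* above it at all 3 times, while *Adamtsl2* moves from -1.10 at baseline to 1.19 after sham surgery.

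Infarction changed the level of 7 of the 9 genes when both genotypes were averaged (limma, Benjamini-Hochberg adjusted over all genes tested), and 65.7% of all genes passed the same test. This contrast, too, includes sham hearts that served in choosing the genes, which limits the count and its p-values. With total read scaling 4 of the 9 passed (*Abat*, *Cntnap2*, *Hs3st5* and *Nceh1*), as did 9722 of all 20576 genes. The 9 genes thus passed at a rate near that of the whole transcriptome. *Tatdn3*, *Nceh1*, *Icosl*, *Abat* and *Hs3st5* fell, as 32.7% of all genes did, and *Ccdc88c* and *Cntnap2* rose, as 32.9% did. Of the 9, 4 changed by at least 2-fold, as did 27% of all genes. The median log2 change over the 9 genes was -0.26, against 0.0055 over all genes tested.

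*Hs3st5* fell by 2.96 ± 0.34 (SE) on the log2 scale, the most of the 9 genes and a 7.76-fold drop (limma adjusted p = 1.75e-06). The 6 infarcted hearts had 69.2 to 716 normalized counts and the 6 sham hearts 660.2 to 2543, so that only the highest infarcted heart reached the sham range. The difference was -2.73 in PKM2fl/fl and -3.19 in PKM2-/- hearts. *Abat* fell by 1.37 ± 0.13 on the log2 scale, 2.59-fold (limma adjusted p = 1.78e-07), and was the only one of the 9 in which all 6 infarcted hearts (113 to 192) lay below all 6 sham hearts (229 to 609.5), a separation that 41% of all genes showed in either direction. Its log2 difference was -0.63 in PKM2fl/fl and -2.11 in PKM2-/- hearts, values that share the sham hearts used in choosing the gene and were not tested against each other. All 5 cardiomyocyte markers fell with infarction in the same libraries (median log2 difference -1.77), and their part in the fall of *Hs3st5* and *Abat* was not tested.

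*Nceh1* fell by 1.03 ± 0.22 on the log2 scale, 2.04-fold (limma adjusted p = 0.000749), and the difference was -0.89 in PKM2fl/fl and -1.17 in PKM2-/- hearts. *Tatdn3* fell by 0.58 ± 0.14 (limma adjusted p = 0.0019). *Icosl* fell by 0.26 ± 0.10 (limma adjusted p = 0.0338), a call that was lost without the first PKM2fl/fl sham, the second PKM2-/- sham or, in either genotype, the second or the third MI library (limma adjusted p = 0.0136 to 0.0923 over the 16 fits without 1 library). It was also lost with the rRNA locus as a covariate (limma adjusted p = 0.091), with no filter on low values (limma adjusted p = 0.0517) and without both libraries rich in rRNA reads (limma adjusted p = 0.0654). For *Nceh1*, *Tatdn3* and *Icosl* the range of the infarcted hearts overlapped that of the sham hearts.

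*Cntnap2* rose by 1.20 ± 0.38 on the log2 scale, 2.29-fold (limma adjusted p = 0.0116), with infarcted hearts at 52.7 to 696 normalized counts and sham hearts at 35.3 to 337. The call was lost with the rRNA locus as a covariate (0.99, adjusted p = 0.0749). *Ccdc88c* rose by 0.32 ± 0.08 (limma adjusted p = 0.0034). *Tmx4* (-0.24 ± 0.23, adjusted p = 0.386 from limma) and *Adamtsl2* (0.024 ± 0.17, adjusted p = 0.906 from limma) did not pass the test, and both had within-genotype differences of opposite sign, 0.13 in PKM2fl/fl and -0.61 in PKM2-/- hearts for *Tmx4* and 0.46 and -0.42 for *Adamtsl2*.

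**Figure D3:**
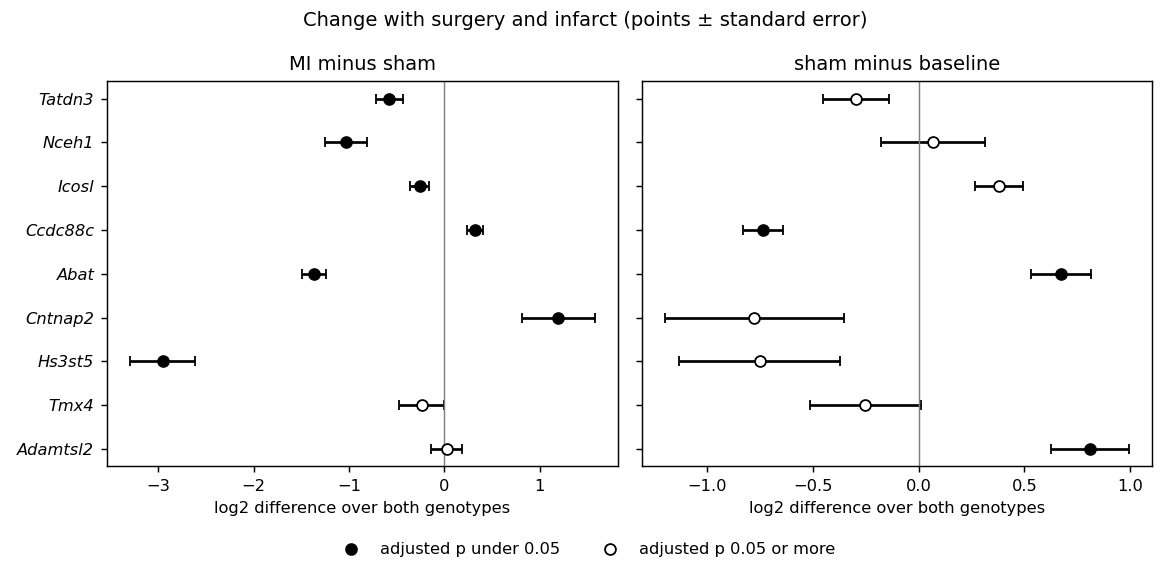
Log2 difference of each of the 9 genes between MI and sham hearts (left) and between sham and baseline hearts (right), averaged over both genotypes, with error bars of 1 standard error. Filled points have an adjusted p under 0.05: 7 genes with infarction, *Hs3st5* farthest from 0 at -2.96, and 3 with surgery.

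Between sham and baseline hearts, averaged over both genotypes, 3 of the 9 genes passed the test (limma, adjusted over all genes). Of all genes 6.54% passed, 4.52% as higher and 2.02% as lower. *Ccdc88c* fell by 0.74 ± 0.09 on the log2 scale (limma adjusted p = 0.000443), *Abat* rose by 0.67 ± 0.14 (limma adjusted p = 0.00976) and *Adamtsl2* rose by 0.81 ± 0.18 (limma adjusted p = 0.0158). None of the 3 changed 2-fold, as 2.26% of all genes did, and none of the 9 genes separated the 6 sham hearts from the 4 baseline hearts, as 7.6% of all genes did. The sham hearts in this contrast were also used in choosing the genes, which limits the p-values, and nothing is read from the count of 3. *Icosl* had a log2 difference of 0.38 ± 0.11 (limma adjusted p = 0.0567). The rises of *Abat* and *Adamtsl2* lay mostly in PKM2-/- hearts, with log2 differences of 0.21 in PKM2fl/fl and 1.14 in PKM2-/- hearts for *Abat* and of -0.33 and 1.96 for *Adamtsl2*, while *Ccdc88c* had -0.61 and -0.86. These within-genotype values were not tested against each other. Without the first PKM2-/- baseline library only *Ccdc88c* passed. *Abat* was also lost without the first PKM2fl/fl baseline library (adjusted p = 0.0548), and *Adamtsl2* without the second (adjusted p = 0.1). Without the third PKM2fl/fl MI library, which enters only through the estimate of spread, 5 passed, as did 1798 of all 20576 genes. *Hs3st5* (-0.75, limma adjusted p = 0.0308) and *Icosl* (limma adjusted p = 0.049) were added. With total read scaling 1 passed (*Adamtsl2*), as did 662 of all genes.

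Among the infarcted hearts, *Hs3st5* and *Abat* went with the cardiomyocyte marker level of the heart. The correlation of their deviations from the group means with those of the summed cardiomyocyte markers was 0.865 for *Hs3st5* and 0.858 for *Abat* over 16 libraries, and 0.705 and 0.61 over 14 libraries without the 2 farthest from the median marker level. It was 0.966 and 0.993 over the 6 infarcted hearts and 0.006 and -0.015 over the 10 baseline and sham hearts, so that the relation rests on the infarcted hearts. These are descriptions, taken from 135 such relations of a gene with a marker list or the rRNA locus, and the libraries share their scaling. The third PKM2fl/fl MI library lay farthest below its group mean for both genes and for the markers. *Hs3st5* and *Abat* also had the highest correlation within groups of any pair among the 9 genes, 0.682. *Ccdc88c* had a correlation of -0.688 with the neutrophil marker sum (-0.68 over 14 libraries). Other relations were larger in size. They were those of *Tatdn3* with the Schwann cell sum (-0.753, and -0.739 over 14 libraries), *Adamtsl2* with the erythroid sum (0.718 and 0.582) and *Abat* with the epicardial and mesothelial sum (-0.715 and -0.624). The correlation of *Abat* with the endothelial sum was 0.456 over 16 libraries and 0.805 over 14.

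**Figure D4:**
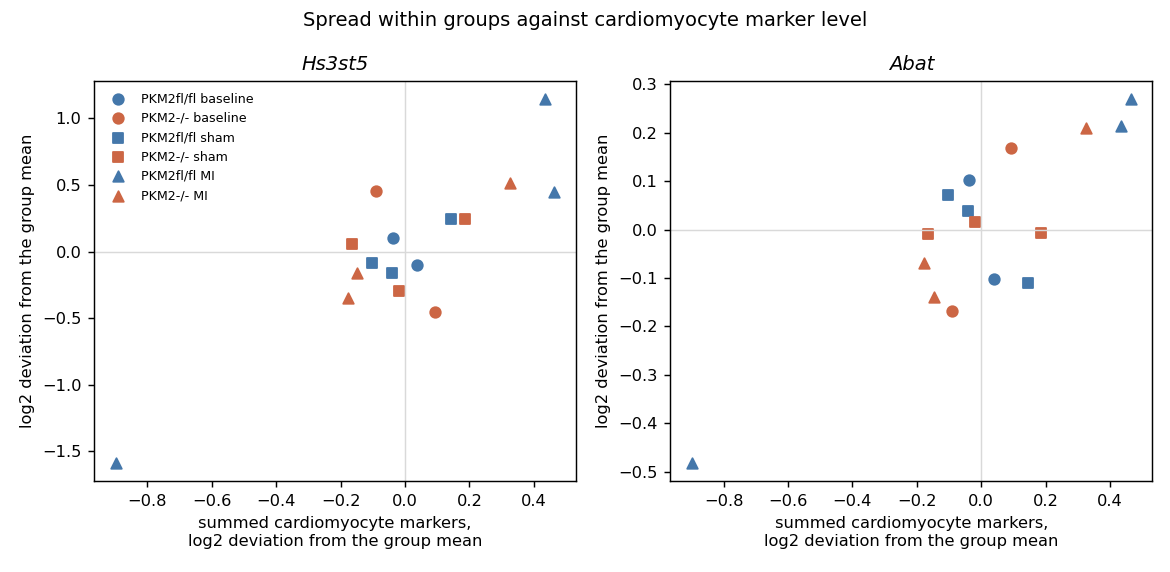
Deviation of *Hs3st5* (left) and *Abat* (right) from the group mean against that of the summed cardiomyocyte markers, both on the log2 scale, with a point per heart coloured by genotype and shaped by treatment. The third PKM2fl/fl MI heart lies at the lower left in both panels, and the 6 MI hearts carry the relation, with correlations of 0.966 and 0.993 against 0.006 and -0.015 in the 10 other hearts.

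The genes most like each of the 9 across the 16 libraries were found by Pearson's correlation of log2 values, which treatment and genotype both feed. *Hs3st5* was followed most closely by *Slco5a1* (0.987), *Vwa8* (0.986) and *Sobp* (0.985), and *Abat* by *Itgb1bp1* (0.939). *Tatdn3* was most like *Gm39214* (0.957), *Nceh1* most like *Zfp369* (0.877), *Icosl* most like *Jcad* (0.885), *Tmx4* most like *Zfp280d* (0.874) and *Adamtsl2* most like *Heg1* (0.946). The gene most like *Cntnap2* was *Rbpj-ps3* (0.982), a pseudogene that lies inside *Cntnap2*, and the gene most like *Ccdc88c* was *Gm36756* (0.962), which overlaps *Ccdc88c*. For both of these pairs the gene spans overlap, so the 2 genes may share reads, which was not checked.

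The chromosomal neighbours of the 9 genes, 5 tested genes on each side, were compared between genotypes over the 16 libraries. By limma, 3 of 90 neighbours were called (3.33%), where 0.102% of all genes were, and 15 of 90 (16.7%) had an unadjusted p under 0.05, where 11.4% of all genes did. *Gm36756* was lower in PKM2-/- hearts by 0.69 ± 0.12 (SE) on the log2 scale (limma adjusted p = 0.0474). *Rps6ka5*, which encodes the kinase MSK1 and lies 186.2 kb from *Ccdc88c*, was lower by 0.32 (limma adjusted p = 0.044). *Rbfox1*, a splicing regulator 1100.9 kb from *Abat*, was lower by 0.55 (limma adjusted p = 0.0474). Among the 86 neighbours that share no bases with the 9 genes, 2 were called (2.33%) and 13 had an unadjusted p under 0.05 (15.1%).

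The single libraries show where these neighbours differed. *Rps6ka5* had 1065 and 1081 normalized counts in PKM2fl/fl and 1085 and 1153 in PKM2-/- baseline hearts, and 1076 to 1204 against 725 to 753 after sham surgery. *Rbfox1* had 4155 to 5242 in PKM2fl/fl and 2215 to 2914 in PKM2-/- sham hearts. After MI the values were 686 to 778 against 520 to 595 for *Rps6ka5* and 2121 to 2506 against 1135 to 1449 for *Rbfox1*. Both genes thus kept the genotypes apart in the operated hearts, with PKM2-/- lower, and at baseline *Rbfox1* overlapped and *Rps6ka5* lay slightly higher in PKM2-/- hearts. The calls were not stable: leaving out 1 library at a time gave between 0 and 7 called neighbours. The 7 came without the third PKM2fl/fl MI library, in a fit in which 704 genes in all were called. The replicate block, the rRNA covariate and the fit with no filter on low values each gave 0.

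**Figure D5:**
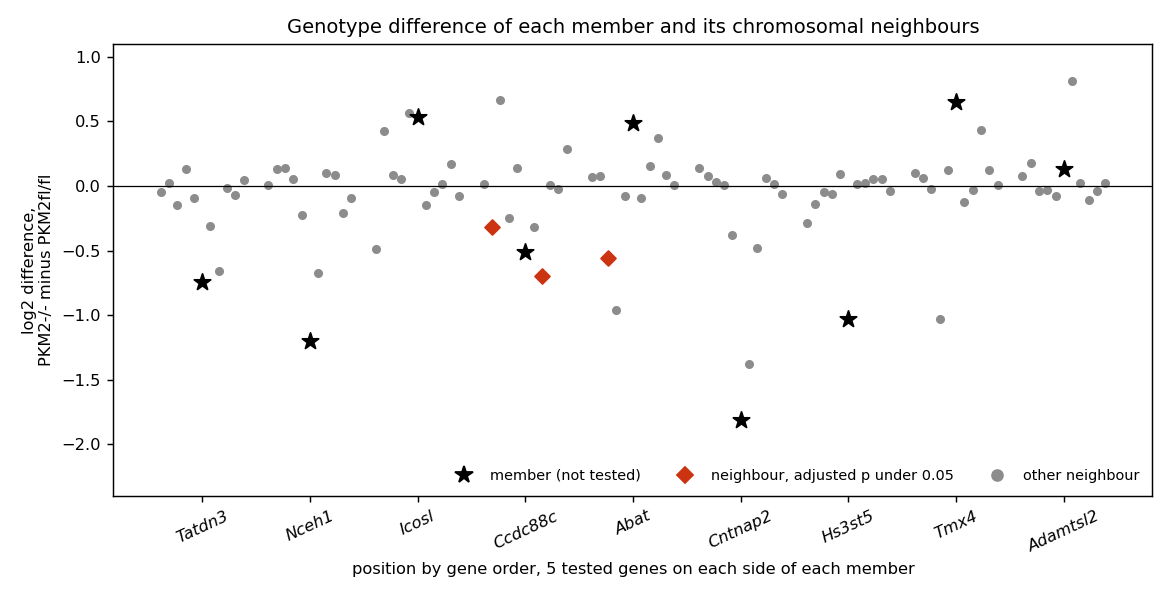
Log2 difference between PKM2-/- and PKM2fl/fl hearts over the 16 libraries for each of the 9 genes (stars, not tested) and for the 5 tested genes on each side in chromosomal order (points). The 3 called neighbours (diamonds) lie beside *Ccdc88c* and *Abat* at -0.32, -0.69 and -0.55, and the other points scatter about 0.

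The families and pathways of the 9 genes were read from lists of 132 partner genes, of which 110 were tested. By genotype 0 of 110 were called by limma, 13 (11.8%) had an unadjusted p under 0.05 against 11.4% of all genes, and 2 (*Cntnap1* and *Gnai2*) were called by DESeq2 on recovered reads and 0 by edgeR. The median log2 genotype difference of the partners was 0.004. Without the third PKM2fl/fl MI library 7 partners were called, in a fit in which 704 genes in all were called in place of 21.

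With infarction 54 partners rose and 37 fell, beside the 65.7% of all genes that changed. Among the genes of cholesteryl ester turnover and efflux 10 of 13 rose and 3 fell, with *Soat1*, which makes cholesteryl esters, at 2.64 ± 0.12 (SE) on the log2 scale (limma adjusted p = 2.8e-10), while *Nceh1*, which splits these esters, fell. Of the GABA genes 2 of 11 rose and 6 fell. *Aldh5a1*, which acts after *Abat* in the breakdown of GABA, fell by 1.98 ± 0.17 (limma adjusted p = 1e-07) and *Got1*, a cytosolic transaminase, by 1.74 ± 0.17 (limma adjusted p = 3.54e-07). Of the contactin-associated proteins, contactins and their channels 1 of 12 rose and 8 fell, with the potassium channel gene *Kcna1* at -1.84 ± 0.20 (limma adjusted p = 1.23e-06) and its subunit gene *Kcnab2* at 1.86 ± 0.13 (limma adjusted p = 1.21e-08), while *Cntnap2* rose.

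Of the listed enzymes that build, sulfate, desulfate or cleave heparan sulfate, 9 of 20 tested rose and 3 fell, while *Hs3st5* fell. *Hs6st2*, a 6-O-sulfotransferase, rose by 3.55 ± 0.29 on the log2 scale (limma adjusted p = 6.57e-08) and *Sulf1*, which removes such sulfates, by 1.31 ± 0.08 (limma adjusted p = 3e-09). In the protein disulfide isomerase family of *Tmx4* 11 of 14 rose and 2 fell, with *Txndc5* at 1.45 ± 0.08 (limma adjusted p = 1.39e-09) and *P4hb* at 1.28 ± 0.07 (limma adjusted p = 1.88e-09), whereas *Tmx4* did not pass. Among the matrix partners of *Adamtsl2* 8 of 16 rose and 7 fell, with *Ltbp2* at 3.72 ± 0.12 (limma adjusted p = 3.46e-11) and *Fbn1*, the gene of fibrillin-1, at 2.08 ± 0.07 (limma adjusted p = 6.75e-11), whereas *Adamtsl2* did not pass.

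In the B7 and CD28 family of *Icosl* 4 of 7 rose and 2 fell, with *Cd276* at 2.78 ± 0.12 on the log2 scale (limma adjusted p = 2.35e-10) and *Vsir* at 1.06 ± 0.10 (limma adjusted p = 1.48e-07), while *Icosl* fell. In the Daple and non-canonical WNT list of *Ccdc88c* 9 of 15 rose and 5 fell, with *Ptk7* at 1.89 ± 0.12 (limma adjusted p = 4.25e-09) and the Daple relative *Ccdc88a* (Girdin) at 1.18 ± 0.08 (limma adjusted p = 1.12e-08). Of the other 2 TatD nuclease genes *Tatdn1* fell by 0.38 ± 0.06 (limma adjusted p = 7.91e-05), as *Tatdn3* did, and *Tatdn2* (0.044 ± 0.07, adjusted p = 0.606 from limma) did not pass.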

How the data were processed

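RNA from left ventricles was depleted of rRNA and sequenced, 1 library per heart. According to the paper's methods and the submitters' processing notes, the authors used HISAT2 for alignment to mm10, featureCounts for reads per gene and DESeq2 for scaling. The deposited signal of each gene and library is its read count divided by the library's size factor. The strand and multi-mapping settings are not given in the sources used here. The same table holds the authors' own comparison (mean, log2 fold change, standard error, Wald statistic and p-values), which was not used. Library columns were matched to samples by their labels, with 0 left over. Dividing by the smallest step of each library gave whole reads for 100.0% of values (tolerance 0.01 read).

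Values were analysed as log2(normalized count + 1) with limma 3.58.1 in R 4.3.3 (trend, 6 group means, all 16 libraries, genes with a mean of at least 10), with Benjamini-Hochberg adjustment over 20576 genes and a threshold of 0.05. Fold changes on this scale understate those of low genes. The p-values measure the spread between hearts. A count model was not the main test because the values are normalized. The alternatives were total read scaling, TMM scaling, a pseudocount of 0.1, no filter, edgeR 4.0.16 and DESeq2 1.42.0 on recovered reads (which called 14297 and 14511 genes with infarction), the replicate number as a block, the rRNA locus (CT010467.1) as a covariate and each of the 16 libraries left out. Removal of both libraries with over 20% of reads on the rRNA locus was added after seeing the data. On simulated counts, limma recovered 81% of 100 genes changed by a log2 of 1 in the MI and sham contrast and 93% in the genotype contrast, and 100% of those changed by 2, among 20587 genes. False calls numbered 11 and 7 in these contrasts. Every gene was drawn with the same dispersion, and no rRNA difference between genotypes was simulated. The rates therefore describe that setting and not the power in these data.

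The members, the partner lists, the marker lists and the tests were chosen with earlier results of these data known. The genes named are the 9 members, *Pkm*, partners called by genotype and the 2 of each list with the smallest p with infarction, called neighbours, and the genes of highest correlation with each member, up to 3. *Nsl1*, *Cntnap1*, *Gnai2*, *Ces1d*, *Tnfsf10* and the further chromosome 12 genes were named after their values were seen. A partner gene that the rule would also name is not reported here. Positions and promoter windows are those of RefSeq on GRCm38.p6.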

Additional observations from a re-analysis of the deposited data

Results flagged for a closer look

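*Adamtsl2* stood out because its genotype difference pointed in opposite directions in 2 conditions. Both PKM2-/- baseline hearts lay below both PKM2fl/fl hearts (log2 difference -1.10), and all 3 PKM2-/- sham hearts lay above all 3 PKM2fl/fl sham hearts (log2 difference 1.19). The gene was chosen for its genotype difference, so the difference between the conditions was not tested. The rRNA locus took 7.63% and 8.25% of reads in the PKM2-/- baseline hearts and 4.14% to 15.01% in the PKM2-/- sham hearts.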

How the results depend on the processing

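The number of members lower in PKM2-/- hearts over 16 libraries was 5 to 6 over the 25 alternatives, and 6 with total read scaling alone. Of 225 genotype differences of single members 222 moved by less than the spread within groups. With total read scaling, which moved the median of all genes by 0.166 in the MI and sham contrast and by -0.179 in the genotype contrast, 4 members were called with infarction, 1 with surgery and 1 partner (*Ces1d*) and 4 neighbours (*Gm36756*, *Rbfox1*, *Rbpj-ps3* and *Tnfsf10*) by genotype, and the genotype difference of *Adamtsl2* reversed to -0.046. With this scaling 9722, 662 and 139 of all 20576 genes were called with infarction, with surgery and by genotype. DESeq2 called 2 partners and 5 neighbours, edgeR 1 neighbour, and the fits with no filter and with the rRNA covariate 0 neighbours. Removing both libraries rich in rRNA reads gave 9 partners and 7 neighbours, in a fit in which 745 genes in all were called by genotype in place of 21. Leaving out 1 library gave 6 to 7 members called with infarction, 1 to 5 with surgery, 0 to 7 partners and 0 to 7 neighbours. The replicate block gave 0 neighbours and left the counts of members at 7 and 3. Replicate numbers mark no shared animal, and in 36 pairs of same-numbered libraries 1 correlation of deviations was over 0.1 (median -0.027), so the numbers do not pair the hearts. The infarct difference of *Tmx4* reversed to 0.075 with the rRNA covariate, to 0.061 without both rRNA-rich libraries and ran from -0.39 to 0.0028 when 1 library was left out (the latter without the first PKM2fl/fl MI library). That of *Adamtsl2* reversed to -0.086 without both libraries and ran from -0.074 to 0.13 when 1 was left out. The surgery difference ran from -0.17 to 0.31 for *Nceh1* and from -0.52 to 0.020 for *Tmx4* when 1 was left out, and none of these passed the threshold. The causes were not tested. *Cntnap2* and *Hs3st5* had as few as 26 and 48 reads in a library. With 2 or 3 hearts a group, differences may be missed, also some over 2-fold. Between genotypes, *Rbpj-ps3* had a log2 difference of -1.38 ± 0.28 (SE) and was not called (limma adjusted p = 0.0791).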

Other observations

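Over the 16 libraries 17 genes outside the 9 were called by genotype. Of the 16 with a RefSeq position, 5 (31.2%) lie on chromosome 12, which holds 3.7% of the tested genes with a position. These are *Rps6ka5*, *Gm36756*, *Serpina3m*, *Gm4294* and *Gm29007*, and the first 3 of them lie with *Ccdc88c* between 100548439 and 104394259 on GRCm38.p6. *Gm36756* overlaps *Ccdc88c* and may share reads with it, and 4 remain without *Gm36756*. *Serpina3m*, which encodes a secreted protease inhibitor, was higher in PKM2-/- hearts (1.58 on the log2 scale, adjusted p = 0.044 from limma), unlike *Ccdc88c*, *Rps6ka5* and *Gm36756*, which were lower. This grouping was noticed after the values were seen and was not tested, and it rests on a count of called genes that moved with the settings. Over all genes, the 9 included, that count was 21 by limma, 0 with no filter on low values and with the rRNA locus as a covariate, 4 with the replicate block, 14 by edgeR, 318 by DESeq2 and 139 with total read scaling. It was 0 without the first PKM2fl/fl or the second PKM2-/- baseline library, the second PKM2-/- sham library or the second MI library of either genotype, and 704 without the third PKM2fl/fl MI library.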
